A study of Helianthus annuus with 9 samples.

Results

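Small RNA of developing sunflower (Helianthus annuus) seeds, from the line L-1-OL-1, was compared at day 22 with the average of day 7 and day 37, to find small RNAs that were highest or lowest at the middle stage alone. The labels call L-1-OL-1 high in oleic acid, and it was grown in an experimental field, with no treatment named, and each day has 3 libraries. The comparison used all 8473 entries of the deposited table that stand for miRNAs, their hairpins, siRNAs and structural RNAs, of which 7294 held enough reads to be tested, and it left out the totals for exons, introns and intergenic sequence. The miRNAs with known names were also summed by the number in their name, which gave 39 families, 33 of them tested. What the days were counted from is not stated, nor whether libraries of the same day are from different plants, so p-values measure the spread between libraries, which can be technical. No gene of a seed tissue is among the entries, so the labelled tissue could not be checked. In whole seeds, more of an RNA per cell and more cells that hold it cannot be told apart.

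Plant miRNAs are cut from hairpin transcripts by Dicer-like enzymes and guide an Argonaute protein to messenger RNAs, which are then cleaved or held back from translation. Small interfering RNAs come from double-stranded RNA, and their length reflects the Dicer-like enzyme that made them. Guides of 21 nt mostly act on messenger RNA, those of 22 nt can start the making of secondary siRNAs, and those of 24 nt direct DNA methylation, mainly at transposons and repeats. The first base of a guide bears on which Argonaute loads it.

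Libraries held 31011803 to 34397084 reads, of which 2208822 to 4050364 stood in small RNA entries (6.78% to 12.02%). Abundances are CPM, reads per 1000000 reads in small RNA entries after TMM scaling. Differences are on the log2 scale with day 22 as the first term, from edgeR's quasi-likelihood test with Benjamini-Hochberg adjustment over the whole table and a threshold of 0.05. Day 37 libraries held more structural RNA than the others (given with the class shares). The median log2 difference over all tested entries was 0.42 rather than 0. From mean CPM with each 0 set to 9 reads it was 0.03. Entries are not independent of each other: 58.4% of the tested siRNAs share 15 or more bases with another one.

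Guides on which the results below turn are shown here in the DNA letters of the deposited files, 5′ to 3′. The first set is the predicted miRNA novel_mir9 (bases 2 to 8, its seed, in capitals) and the 10 siRNAs whose guides lie in its precursor, all of them higher at day 22 than at both other days (for siRNAs the capital marks the 5′ base).
novel_mir9: aCGTTGAGccttaagaccagctagg
novel_sir12290: Cttttgcttttggagttgata
novel_sir8711: Ctccaaaagcaaaagtagcaa
novel_sir6233: Aaagtagcaagattttgagca
novel_sir3507: Aagattttgagcagaagtgtt
novel_sir1275: Aagaagcgtgggcgaacctta
novel_sir6111: Cgcgtctgtggggaccctagct
novel_sir12697: Tatttgccgctcctaaatgacc
novel_sir11251: Cttaagaccagctagggtacc
novel_sir14540: Ctagctggtcttaaggctcaac
novel_sir18327: Ccaaaaggaaaagtagcaaga

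The second set is the predicted miRNA novel_mir53 with the 7 siRNAs of its precursor, again all above both other days, in the same notation.
novel_mir53: gTACTCTCaaaaggccagaagcg
novel_sir13259: Cttttgagagtaccatcgaag
novel_sir17930: Tactctcaaaaggccagaagc
novel_sir6965: Actctcaaaaggccagaagcg
novel_sir15098: Ccttgatcatcgcgtcgcatc
novel_sir18150: Gatgcgccgcgatgatcaagg
novel_sir3749: Agattatatggcatggatgcg
novel_sir3875: Aggccagaagcggttaatgca

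The third set holds siRNAs of each length that stood above both other days at day 22.
novel_sir6926: Actaattgtacgatcgaaggg
novel_sir15071: Atcgaacaggttcaaggcatc
novel_sir5073: Caaactaaggttcccgatcgct
novel_sir15080: Aaggatgatatacaaaaggcaat
novel_sir6541: Atagtttcgagcccgatctcagtg

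The fourth set holds siRNAs that stood below both other days, among them the only tested guides, novel_sir10615 and novel_sir19004, that are made of the plant telomere repeat.
novel_sir17720: Gaaaagccagtggcgcgaagc
novel_sir16219: Tctcttaggaccaggttacatg
novel_sir10615: Ctaaaccctaaaccctaaaccc
novel_sir19004: Accctaaaccctaaaccctaaacc
novel_sir14844: Tcctaaggcatatctaaatcata
novel_sir18573: Acataaatttattggatcccaagc

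Known miRNAs are given by name, as the files used here pair no sequence with them.

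At day 22, 2634 of the 7294 tested entries were higher than the average of the other days (36.1%) and 473 were lower (6.48%). Most of these did not peak or dip. A small RNA that rises or falls through all 3 days can also pass, where day 22 lies above or below the log2 midpoint of the other days. Of the 2634 entries, 655 were higher than both day 7 and day 37, each with an adjusted p under the threshold (8.98% of those tested), and are called peaks below. Another 580 passed against day 7 alone and 361 against day 37 alone. For 1034 the 2 sides were opposite, with 539 above day 7 but below day 37 and 495 below day 7 but above day 37. Of the 473 lower entries 93 were below both days (1.28% of those tested), called dips, and 160 had opposite sides. All 3 day 22 libraries stood above the other 6 for 919 entries (12.6%) and below them for 118 (1.62%).

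**Figure D1:**
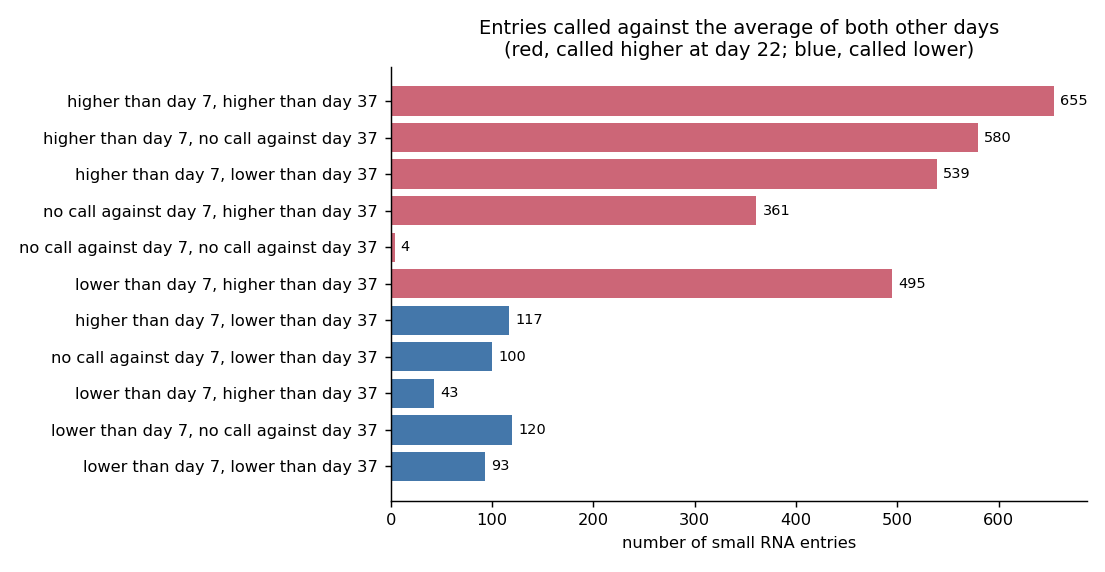
Number of small RNA entries called against the average of day 7 and day 37, split by the separate tests of day 22 against each day (x axis, number of entries). The top bar, 655 entries, is the set of peaks and the lowest bar, 93 entries, the set of dips.

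Of the 29 families with a mean of at least 10 CPM, 18 were higher at day 22 than the average of the other days, 3 were lower and 8 did not pass. The family sums were tested within a table of 7132 entries, of which 36.5% were higher and 6.74% lower. In all, 10 families peaked, against 9.11% of that table, and 0 dipped in edgeR, against 1.29%. The number that dipped was also 0 at an unadjusted p under 0.05, and it was 1 with DESeq2 (miR6300). Scaling decided some of these calls: miR396, miR398 and miR858 were no peaks with RLE factors, DESeq2, library totals alone or totals of known miRNAs, and library totals alone added miR171, miR390, miR394 and miR397. The median log2 difference of the 29 families was 0.75, beside 0.42 over all tested entries.

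Among families that act on the silencing machinery, 2 of 3 peaked, beside 9.11% of the whole table with family sums, and the list is short. The family miR168, whose target is AGO1, the main Argonaute of plant miRNAs, measured 8640.3, 8202 and 6922 CPM at day 7, 29525, 26582 and 24020.2 CPM at day 22 and 12637, 12568 and 14891 CPM at day 37. The 3 day 22 libraries lay above the other 6, at 3.37 times the mean of day 7 and 2.00 times that of day 37 (log2 1.38 against the average of both days, SE 0.10, adjusted p = 1.60e-05). The family miR403, which targets AGO2 in Arabidopsis, measured 351, 334 and 351 CPM at day 7, 899.8, 965 and 963 CPM at day 22 and 199.6, 196 and 214 CPM at day 37. Its libraries also did not overlap between day 22 and the others, with 2.73 times the mean of day 7 and 4.64 times that of day 37 (log2 1.83 against the average of both days, SE 0.06, adjusted p = 8.73e-07). The third family, miR162, targets DCL1, the Dicer-like enzyme that makes miRNAs, and went the other way. It measured 566, 529 and 520.1 CPM at day 7, 167.6, 147 and 208 CPM at day 22 and 271, 171.8 and 205 CPM at day 37. Day 22 was lower than the average (log2 -0.97 against the average of both days, SE 0.16, adjusted p = 0.00127) and than day 7 (log2 -1.63), but its libraries overlapped those of day 37 (log2 -0.31, adjusted p = 0.191).

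Among the 9 families with developmental regulators as their targets, 4 were higher than the average, 2 of them as peaks. Of the whole table with family sums 36.5% were higher and 9.11% peaked, so 9 families are too few to set this list apart. The family miR164 targets NAC transcription factors that shape organ boundaries, and it measured 3295, 2995 and 3119 CPM at day 7, 6660.4, 7017 and 8173 CPM at day 22 and 877, 869 and 1106 CPM at day 37. No day 22 library overlapped another day (log2 2.08 against the average of both days, SE 0.10, adjusted p = 2.23e-06), and day 22 stood at 2.32 times day 7 and 7.66 times day 37. The family miR396, which targets growth-regulating factors and was the most abundant at day 22, measured 42600.3, 43782 and 40875 CPM at day 7, 51129, 54203 and 61118 CPM at day 22 and 4607, 3400.0 and 3518 CPM at day 37. Nearly all of its difference was against day 37, at 14.4 times, while day 22 stood at 1.31 times day 7 (log2 0.39 against day 7 (adjusted p = 0.0204) and 3.85 against day 37 (adjusted p = 2.21e-07)). The side against day 7 was lost without the third day 22 library (log2 0.24, adjusted p = 0.128), without any 1 of the day 7 libraries (adjusted p = 0.1, 0.0787 and 0.112 without replicates 1, 2 and 3), under RLE scaling (0.04, 0.782) and with library totals alone (-0.06, 0.662).

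The other families of the developmental list took other courses. The family miR171, which targets GRAS transcription factors, was higher than the average (log2 0.87, adjusted p = 8.96e-06) and higher still at day 37, at 1274 ± 32.6, 4891 ± 137 and 5631 ± 280.0 CPM on days 7, 22 and 37 (mean ± SD, n = 3). That last step turned with the scaling: with library totals alone day 22 was above day 37 (log2 0.27, adjusted p = 0.0128). The family miR394, whose target is an F-box gene, had all 3 day 22 libraries above the other 6, at 130.1, 145 and 178 CPM at day 7, 459, 494 and 446 CPM at day 22 and 142, 253 and 443 CPM at day 37. Its day 37 libraries were far apart and the side against day 37 did not pass (adjusted p = 0.106). It did pass, as a peak, without day 37 replicate 3 (log2 1.24, adjusted p = 0.00433), with the replicate block (0.86, 0.0451), with all reads as library size (1.00, 0.0429) and with library totals alone (1.19, 0.0198). Hairpin entries held 53.5% of the miR394 reads. With its mature entries alone the side against day 37 did not pass (adjusted p = 0.156). The families miR166 (HD-ZIP III factors), miR159 (MYB factors), miR319 (TCP factors), miR170 and miR169 (NF-YA factors) did not pass against the average, at log2 0.17, 0.10, 0.24, 0.18 and 0.32. Of these, miR170 and miR169 rose from each day to the next, with day 22 above day 7 and below day 37. Hairpin entries held 60.6% of the miR169 reads, and its mature entries alone did not pass against day 37 (log2 -0.31, adjusted p = 0.490). For miR166 hairpins held 48.5%. Its mature entries alone were above day 7 (log2 0.56, adjusted p = 0.00120) and did not pass against the average (adjusted p = 0.171).

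Of 4 families tied to mineral nutrition, 3 were higher and 2 peaked, beside 36.5% and 9.11% of the whole table with family sums, and the list is short. The family miR399, which targets PHO2, a ubiquitin-conjugating enzyme of phosphate balance, measured 61.8, 49.4 and 56.9 CPM at day 7, 121, 161 and 217 CPM at day 22 and 7.68, 12.3 and 11.3 CPM at day 37. It stood at 2.97 times day 7 and 16.0 times day 37, with no overlap (log2 2.78 against the average of both days, SE 0.19, adjusted p = 1.44e-05). The family miR398, which targets copper/zinc superoxide dismutases, measured 567, 446 and 469 CPM at day 7, 659, 675 and 641 CPM at day 22 and 347, 299.8 and 364 CPM at day 37. Day 22 was above both days (log2 0.41 against day 7 (adjusted p = 0.00896) and 0.97 against day 37 (adjusted p = 1.20e-04)), and the side against day 7 was lost without day 7 replicate 2 (adjusted p = 0.0735), without day 7 replicate 3 (0.0635) under RLE scaling (log2 0.07, adjusted p = 0.587) and with library totals alone (-0.03, 0.781). The family miR397, with laccases as its targets, was above day 7 and did not pass against day 37, at 37.2 ± 7.83, 264 ± 19.1 and 252 ± 29.4 CPM (log2 0.07 against day 37, adjusted p = 0.792). With library totals alone it peaked (log2 0.54 against day 37, adjusted p = 0.00948). The sulphate family miR395 did not pass (log2 0.26 against the average, adjusted p = 0.438).

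The phase change families miR156 and miR172 control the step from juvenile to adult growth through SPL and AP2 transcription factors. Both were higher at day 22 than the average and 1 of 2 peaked, beside 36.5% and 9.11% of the whole table with family sums, and the list is short. The family miR156 measured 571, 485 and 543 CPM at day 7, 6326, 5977 and 7260.4 CPM at day 22 and 8942, 10785 and 10966 CPM at day 37. It rose at each step, so its difference from the average (log2 1.48) joined a side of 3.61 against day 7 with one of -0.65 against day 37. The family miR157, which is often counted with miR156 and also targets SPL genes, peaked, at 831, 742 and 848 CPM at day 7, 2423, 2504 and 3157 CPM at day 22 and 766, 883 and 926 CPM at day 37 (log2 1.70 against the average of both days, SE 0.10, adjusted p = 7.05e-06). With both summed, means were 1340.3, 9216 and 11089 CPM and there was no peak (log2 -0.27 against day 37, adjusted p = 0.0838). The family miR172 measured 19.9, 20.1 and 22.3 CPM at day 7, 43.0, 38.3 and 48.3 CPM at day 22 and 19.2, 12.9 and 10.9 CPM at day 37 and peaked (log2 1.32 against the average of both days, SE 0.16, adjusted p = 2.62e-04). Hairpin entries held 63.9% of its reads, and its mature entries alone went the other way, lower at day 22 than at day 7 (log2 -0.98, adjusted p = 0.00621). With totals of known miRNAs its side against day 7 did not pass (log2 0.42, adjusted p = 0.177).

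The family miR858, which targets MYB factors of phenylpropanoid synthesis, measured 10186, 10233 and 9766 CPM at day 7, 12753, 13224 and 12032 CPM at day 22 and 9251, 8602 and 8969 CPM at day 37. This was a small peak, 1.26 times day 7 and 1.42 times day 37, and under RLE scaling the side against day 7 was log2 -0.01 (adjusted p = 0.882) and with library totals alone -0.12 (0.0842). The family miR477 measured 5.41, 5.03 and 5.97 CPM at day 7, 54.4, 32.7 and 58.7 CPM at day 22 and 5.37, 3.32 and 3.52 CPM at day 37. It had the largest difference from the nearer day among the 10 peaking families, 8.88 times day 7 and 11.9 times day 37 (log2 3.36 against the average of both days, SE 0.22, adjusted p = 1.05e-05), but 95.5% of its reads were in hairpin entries and its mature entries were too few to test. The calls of miR164, miR168, miR399 and miR403 held in every alternative run, library left out included, and with the mature entries alone. Those of miR157 and miR477 held in every alternative that gave them a value of their own.

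Of the 4 auxin-linked families 0 peaked in edgeR with TMM factors or in DESeq2, at an adjusted or an unadjusted p under 0.05, and 2 were higher than the average. Of the whole table with family sums 9.11% peaked and 36.5% were higher, so 4 families are too few for the 0 to set them apart. The family miR393, which targets the auxin receptors, fell throughout, at 207 ± 20.97, 80.4 ± 11.9 and 10.98 ± 1.48 CPM, and still passed as higher than the average (log2 0.75, adjusted p = 0.00126). Hairpin entries held 50.1% of its reads. The family miR390, which starts the TAS3 siRNAs that act on auxin response factors, was above the average (log2 0.70, adjusted p = 0.00186) and did not pass against day 37 (adjusted p = 0.139). It peaked with all reads as library size (log2 0.57 against day 37, adjusted p = 0.0234) and with library totals alone (0.75, 0.00441). The families miR167 and miR160, which target auxin response factors, did not pass (adjusted p = 0.425 and 0.079). Outside the lists, miR536 and miR3630 were higher than the average without peaking (log2 3.86 and 1.12). Means of miR536 were 6.59, 2816 and 5645 CPM on days 7, 22 and 37. Its day 37 libraries were far apart, at 1362, 2979 and 12593 CPM, and that side did not pass (adjusted p = 0.283). Means of miR3630 were 28.6, 178 and 235 CPM, with day 22 below day 37 (log2 -0.40, adjusted p = 0.0282). The families miR6111 and miR6300 were lower, at log2 -0.56 (adjusted p = 0.0386) and -0.61 (0.0187), and both overlapped another day. Hairpins held 31.5% and 47.1% of their reads, and neither passed with mature entries alone (adjusted p = 0.0821 and 0.115), with all reads as library size (0.163 and 0.0504) or without day 22 replicate 1 (0.0956 and 0.0550). For miR6111 the call was also lost without day 22 replicate 2 (0.148), day 7 replicate 1 (0.0577) or day 7 replicate 3 (0.0602).

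**Figure D2:**
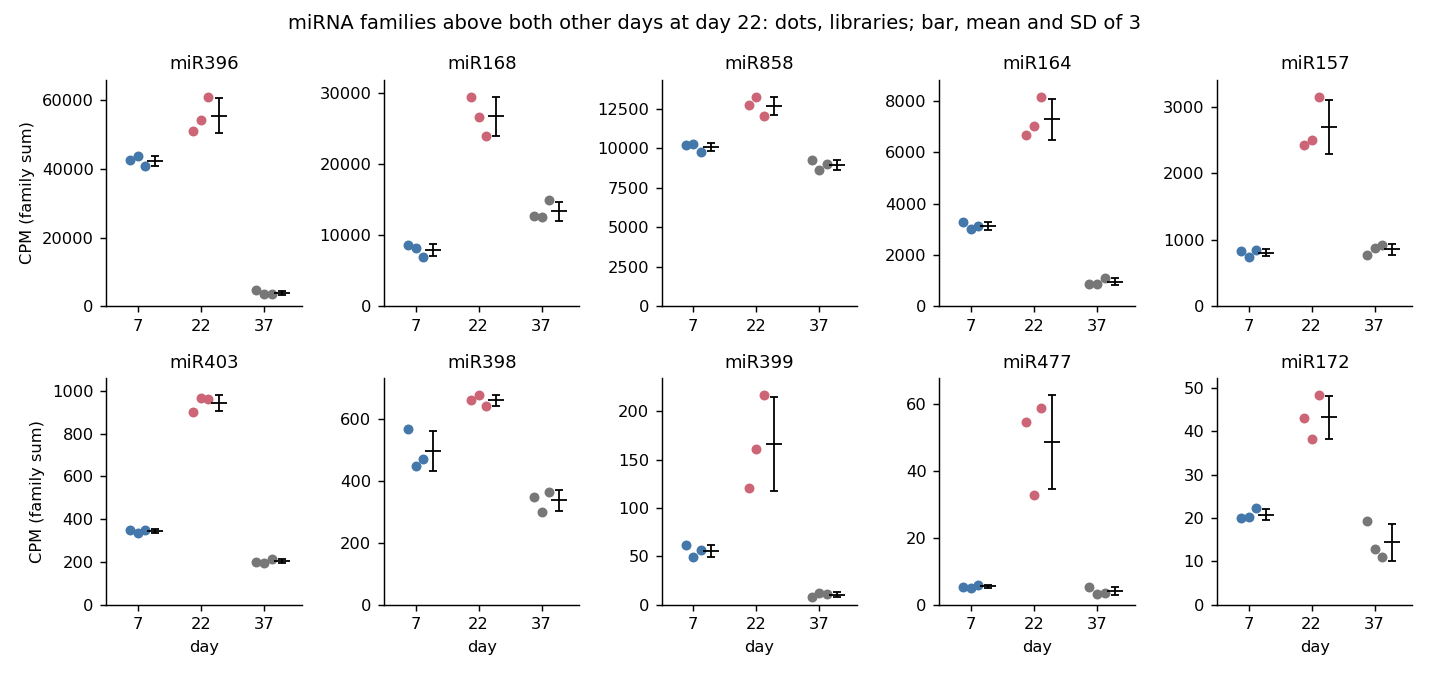
Summed CPM of the 10 miRNA families that were above both other days at day 22 (y axes, linear and from 0, with a scale per family) by day (x axes). Dots are libraries and bars the mean ± SD of 3, and in each panel the 3 day 22 libraries lie above the other 6.

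Single known entries were a poor guide to their families, since their reads were uneven between libraries of a day. Of 534 pairs of an entry and a day, 103 had libraries at least 10-fold apart. The most abundant entry at day 22, miR396f_1, measured 40100.2, 41202 and 107 CPM at day 7, 48876, 51805 and 58552 CPM at day 22 and 4342, 3216 and 2.82 CPM at day 37, and its difference did not pass (adjusted p = 0.224). The 1 mature known entry called a dip, miR167d-5p, which the rule for named entries does not take in, had 2, 31973 and 31017 reads in the day 37 libraries and 4, 2 and 9 in those of day 22, so the groups overlapped. The entry miR171a_1 was even between libraries, at 11.1, 11.9 and 10.1 CPM at day 7, 521, 553 and 543 CPM at day 22 and 49.1, 45.8 and 41.9 CPM at day 37. It peaked at day 22 (log2 4.58 against the average of both days, SE 0.08, adjusted p = 3.26e-08) while its family total did not. Other named entries that peaked were miR164a_4, miR164b, the miR477b hairpin and miR396a-3p_1, the last with 319.7, 10.6 and 435 CPM in the day 22 libraries. The hairpin miR319a_1 dipped, at 134 ± 7.77, 50.6 ± 3.79 and 90.9 ± 27.4 CPM, but the side against day 37 was lost with all reads as library size (log2 -0.56, adjusted p = 0.0546) and with library totals alone (-0.37, 0.165).

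Among siRNAs the peaks lay mostly in the 21-nt class. Of 2500 tested 21-nt siRNAs 466 peaked (18.6%) and 20 dipped (0.800%), beside 8.98% and 1.28% over all entries. Of 1572 22-nt siRNAs 128 peaked (8.14%) and 24 dipped. Of 2521 24-nt siRNAs 16 peaked (0.635%) and 35 dipped (1.39%), and of 241 23-nt siRNAs 2 peaked and 5 dipped. Other lengths gave 12 peaks and 6 dips among 119. The 21-nt class, with 2500 of the 7294 tested entries, made up 71.1% of all peaks. The 24-nt class, with 2521 of them, made up 37.6% of all dips. Its share of dips was near that of all entries and below those of the 22-nt (1.53%) and 23-nt (2.07%) classes. Median log2 differences from the average were 0.83, 0.86 and -0.20 in the 21-nt, 22-nt and 24-nt classes. With zeros set to 9 reads, the most that a 0 is taken to allow since siRNAs are listed only from 10 reads, these were 0.45, 0.22 and -0.48, beside 0.03 over all entries.

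**Figure D3:**
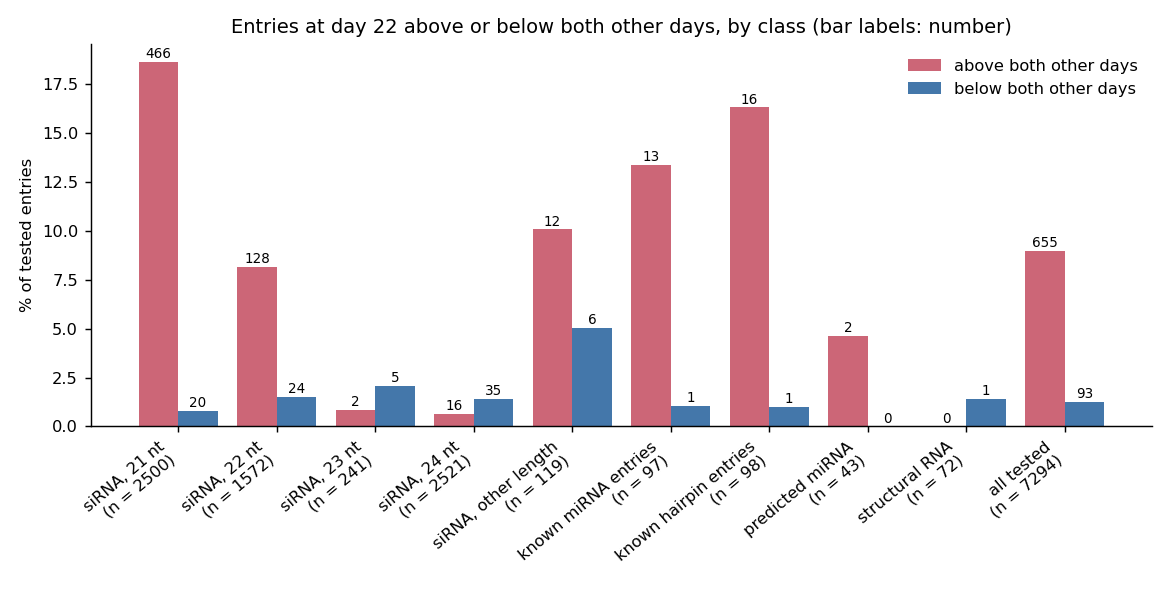
Share of tested entries that were above (red) or below (blue) both other days at day 22 (y axis, % of tested entries) by class of small RNA (x axis, with the number tested). Numbers on the bars count entries, and the 21-nt siRNAs reach 18.6% with 466 entries.

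The peaks spanned a wide range of abundance. Together the 466 peaking 21-nt siRNAs held 6.88% ± 0.404, 12.3% ± 0.195 and 3.85% ± 0.138 of the small RNA reads on days 7, 22 and 37 (SD, n = 3), a description of the set that the calls chose. Most were modest, with a median of 1.92 times the nearer of the other days over all 655 peaks, and 123 of them over 4 times. At the other end, 137 peaks were listed at 0 in all 6 libraries of the other days, 114 of them 21-nt siRNAs. Such entries passed the filter on low counts through day 22 alone, so their calls follow from it in part and are a description. Of the 93 dips, 11 were at 0 in the 3 day 22 libraries. By first base, among 21-nt guides, 17.9% of those that begin with A peaked, 20.4% with C, 16.0% with G and 17.4% with T. Median GC content was 47.6% in the peaking guides, 52.4% in the 20 dipping ones and 42.9% in all tested 21-nt guides. Within each first base, peaking and all tested 21-nt guides had the same median (42.9% for A and T, 47.6% for C and G).

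Some peaks came in clusters along predicted miRNA precursors. Guides of 208 tested siRNAs lie within one of these precursors, and 55 of them peaked (26.4%, beside 8.97% of all tested siRNAs) and 1 dipped. Both shares include guides listed at 0 on the other days, such as novel_sir13259. Those passed the filter on low counts through day 22 alone, so the shares are a description. The peaks were not spread evenly. Of 29 precursors with at least 3 tested siRNAs, 21 held 0 peaks, while in 4 every siRNA peaked. Precursors can share guides: those of novel_mir59 and novel_mir60, both with 0 peaks, each held 16 siRNAs with the same summed CPM in every library. The precursors described next were chosen after these counts were seen for the number of their siRNAs that peaked, so they are given as a description with no further test. Neighbouring guides within a precursor overlap or may come from one transcript, and are not independent.

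The precursor of novel_mir9 is deposited at 55117526 to 55117854 on NC_035435.1, plus strand, of a genome build that is not stated, and was not set against genes. Precursor positions are printed as deposited, and their starts may count from 0, since each precursor is as long as its end minus its start. All 10 of its siRNAs peaked, 4 with the sequence of the precursor and 6 with that of the opposite strand. Summed, they measured 75.3, 72.3 and 75.7 CPM at day 7, 755, 730.2 and 878 CPM at day 22 and 38.8, 43.1 and 43.7 CPM at day 37. The 3 day 22 libraries lay above the other 6 for each of the 10. The most abundant, novel_sir14540, measured 33.8, 28.3 and 32.7 CPM at day 7, 354, 348 and 406 CPM at day 22 and 28.02, 27.2 and 26.4 CPM at day 37, and stood at 11.7 times day 7 and 13.6 times day 37 (log2 3.65 against the average of both days, SE 0.08, adjusted p = 1.83e-07). All 22 bases of this guide are the reverse complement of bases within the predicted mature miRNA. That mature miRNA, novel_mir9, lies at bases 111 to 135 of the precursor and novel_sir14540 was placed at 195 to 216. As a reverse complement the guide also matches the opposite strand at the mature miRNA, so its place is not unique. The miRNA itself measured 3.72, 3.46 and 5.03 CPM at day 7, 59.0, 56.9 and 68.8 CPM at day 22 and 0 in each day 37 library, at 15.1 times day 7 and at least 19.2 times day 37 (adjusted p = 4.83e-06 against the average). Bounds of this kind only set each 0 to 9 reads, with no allowance for counting error or for differences between libraries. The guide novel_sir1275, at bases 47 to 67 on the opposite strand, went from 3.54 over 80.5 to 1.29 CPM, 22.8 times day 7 and at least 23.4 times day 37.

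The precursor of novel_mir53 (22937337 to 22937704 on NC_035444.1, plus strand) held 7 tested siRNAs, all 21 nt long and all peaks. Their sum was 0, 3.77 and 0 CPM in the day 7 libraries, 336, 321 and 345 CPM at day 22 and 15.7, 21.2 and 14.5 CPM at day 37. Only 1 day 7 library had a listed count, which is at least 10 reads, for any of them. The guide novel_sir13259 had 223, 182 and 235 reads in the day 22 libraries and 0 in the other 6, which puts day 22 at least 20.9 times above day 7 and at least 18.9 times above day 37. That guide passed the filter on low counts through day 22 alone, so its call is a description. The most abundant guide, novel_sir15098, was at 0 in every day 7 library and averaged 90.3 ± 5.30 CPM at day 22 and 8.25 CPM at day 37 (adjusted p = 1.69e-05 against the average). The guides novel_sir17930 and novel_sir6965 are stretches of the predicted mature miRNA itself, 1 base apart. The miRNA novel_mir53, under the abundance needed to be named by rule, had 85, 75 and 86 reads at day 22 and a listed 0 in the other libraries. It passed the filter on low counts through day 22 alone, so its call is a description. With novel_mir9 it was 1 of 2 peaks among 43 tested predicted miRNAs (4.65%, beside 8.98% of all entries), of which 0 dipped in edgeR (also 0 at an unadjusted p under 0.05, and 1, novel_mir7, with DESeq2, RLE factors, library totals alone and totals of known miRNAs). Of the 43, 14 were higher (32.6%, beside 36.1% of all entries) and 8 lower than the average (18.6%, beside 6.48%).

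The precursor of novel_mir20 (157109532 to 157110653 on NC_035436.1, plus strand, 1121 bases) held 29 tested siRNAs, 23 of them 22 nt long. Of these, 22 peaked and 0 dipped, and for 28 of the 29 all day 22 libraries lay above the other 6. Summed, they measured 521, 519 and 536 CPM at day 7, 2045, 2037 and 2126 CPM at day 22 and 244, 289.6 and 279 CPM at day 37. Peaks of 3 lengths sit in it: the 22-nt novel_sir14933, the 23-nt novel_sir15080 and the 24-nt novel_sir6541, all 3 among the peaks named for their length. The guide novel_sir15080 measured 28.04, 19.5 and 19.8 CPM at day 7, 155, 161.7 and 148 CPM at day 22 and 21.1, 14.3 and 20.1 CPM at day 37 (log2 2.93 against the average of both days, SE 0.14, adjusted p = 3.61e-06), and novel_sir6541 37.6 ± 2.33, 105 ± 2.45 and 10.8 ± 1.39 CPM on days 7, 22 and 37. Their groups did not overlap. In the precursor of novel_mir87 (96977429 to 96977927 on NC_035447.1, plus strand) all 6 tested siRNAs peaked, with a sum of 758, 662 and 655, then 1592, 1628 and 1548, then 239.9, 250.1 and 252 CPM in the libraries of the 3 days. In that of novel_mir12 (141509103 to 141509190 on NC_035435.1, plus strand) all 3 did, at 5.76 ± 2.63, 108 ± 3.75 and 17.8 ± 2.95 CPM. No mature miRNA of these 3 precursors was among the tested entries. Other precursors ran differently: the 10 siRNAs in that of novel_mir29 summed to 803, 127 and 4.02 CPM, and the 16 in that of novel_mir59 to 3751, 10889 and 33316 CPM, with 0 peaks in either.

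**Figure D4:**
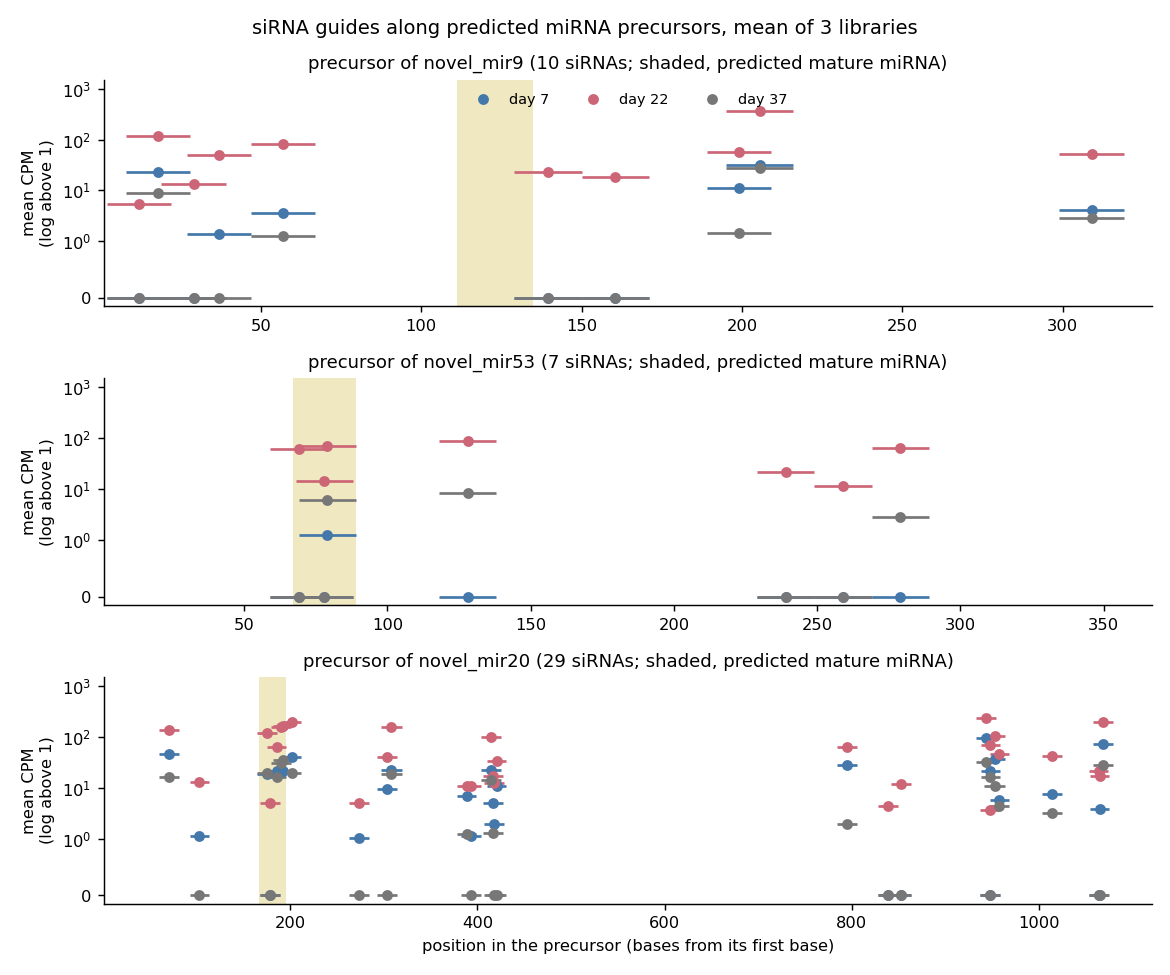
Mean CPM of each tested siRNA (y axis, log scale above 1 and linear to 0, mean of 3 libraries) along the precursors of novel_mir9, novel_mir53 and novel_mir20 (x axis, bases from the first base of the precursor). Each bar spans a guide, colours are the days and the shaded strip is the predicted mature miRNA; day 22 lies above the other days for all 10 and all 7 siRNAs of the first pair of precursors, with many of the others at 0.

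The most abundant siRNA at day 22 was also a peak. The 21-nt novel_sir15071 measured 15246, 10497 and 13651 CPM at day 7, 34516, 35043 and 28295 CPM at day 22 and 14446, 11472 and 11358 CPM at day 37, 2.48 times day 7 and 2.63 times day 37, with no overlap (log2 1.35 against the average of both days, SE 0.14, adjusted p = 1.10e-04). The next siRNAs by abundance did not peak. The 22-nt novel_sir14147 was above the average (log2 0.52), with 20951 CPM at day 22 and 17932 CPM at day 37, and the 21-nt novel_sir8790 stayed high at day 37 (18299 and 19964 CPM). The 21-nt novel_sir6926 was listed at day 22 and at 0 on the other days, at 52.4, 57.2 and 52.2 CPM, at least 18.6 times day 7 and at least 16.8 times day 37. Its call is a description too, since it passed the filter on low counts through day 22 alone. Named 22-nt and 23-nt peaks further include novel_sir5073, at 5.64, 46.6 and 1.41 CPM, and novel_sir19622, at 33.7, 66.6 and 26.9 CPM, whose side against day 7 was lost with totals of known miRNAs (log2 0.34, adjusted p = 0.190). The 24-nt peaks novel_sir756 and novel_sir11175 were weak: both lost the call under RLE scaling (adjusted p = 0.0729 and 0.137 on the failing side). Both also lost it without day 22 replicate 3 (adjusted p = 0.124 and 0.102). The call of novel_sir756 was lost without any single day 22 or day 37 library, and without day 7 replicate 1. That of novel_sir11175 was lost without day 22 replicate 2, day 7 replicate 1 or day 7 replicate 2, and with the replicate block.

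Dips were fewer and mostly moderate. Both tested guides built of the telomere repeat CCCTAAA dipped: of 6951 tested siRNAs with a guide sequence, 2 hold at least 2 tandem copies of it on either strand, and the repeat fills all 22 bases of novel_sir10615 and all 24 of novel_sir19004. Telomere repeats cap chromosome ends and also occur inside plant chromosomes, and their transcripts are known to feed 24-nt siRNAs in Arabidopsis. The guide novel_sir10615 measured 63.5, 62.9 and 65.7 CPM at day 7, 26.4, 21.8 and 20.8 CPM at day 22 and 151, 113 and 152 CPM at day 37, so day 7 was 2.79 times and day 37 6.04 times day 22 (log2 -2.04 against the average of both days, SE 0.14, adjusted p = 1.32e-05). Both are windows of the same repeat and share more than 15 bases, so they are not independent, and 2 of 2 stands beside 1.29% of all tested siRNAs that dipped. The guide novel_sir19004, looked up after the first one was seen to dip, measured 27.0, 44.96 and 31.1 CPM at day 7, 13.8, 6.22 and 12.2 CPM at day 22 and 30.7, 29.2 and 42.3 CPM at day 37 (log2 -1.66 against the average of both days, SE 0.29, adjusted p = 0.00176). In neither did day 22 overlap another day.

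The first of the named 21-nt dips, novel_sir17720, measured 305, 356 and 285 CPM at day 7, 57.9, 53.2 and 64.9 CPM at day 22 and 149, 169.5 and 185 CPM at day 37. Day 7 stood at 5.38 times and day 37 at 2.86 times day 22 (log2 -1.97 against the average of both days, SE 0.12, adjusted p = 8.58e-06). The 24-nt novel_sir18573 was at 0 in all 3 day 22 libraries, with 18.9, 7.86 and 10.4 CPM at day 7 and 19.6, 28.2 and 33.5 CPM at day 37, at least 4.82 and at least 10.5 times day 22. The 24-nt novel_sir16055 averaged 28.4, 3.35 and 14.3 CPM, with zeros in none of the libraries. The 23-nt novel_sir14844 went from 18.4 to 4.397 and back to 21.1 CPM. The 22-nt novel_sir16219 was even on both sides, at 70.2 ± 1.23, 25.8 ± 2.61 and 72.0 ± 10.8 CPM. The other named dips, novel_sir7446, novel_sir7025, novel_sir985, novel_sir16167, novel_sir10312 and novel_sir18508, had means between 2.17 and 8.47 times higher at another day than at day 22. Of 1151 groups of siRNAs that share 15 or more bases, 102 held at least 2 peaks, 13 at least 2 dips and 0 a peak together with a dip. Of all tested siRNAs 8.97% peaked and 1.29% dipped, so few groups could hold both. Members of a group are not independent, and the counts were not set against an expected number.

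Structural RNA gave 0 peaks among 72 tested entries (beside 8.98% of all entries) in edgeR with TMM factors or in DESeq2, at an adjusted or an unadjusted p under 0.05. With library totals alone there was 1 and with all reads as library size there were 2. Of the 72, 9 were above the average of the other days (12.5%, beside 36.1%) and 7 below it (9.72%, beside 6.48%). The 1 dip was small Cajal body specific RNA 6, a guide RNA for the modification of spliceosomal RNAs, with 3 reads in each day 22 library, 6, 9 and 6 reads at day 7 and 23, 31 and 34 at day 37. It was named after its values were seen. The most abundant structural entry, the rRNA model RF01960, rose through all 3 days, at 18344 ± 2197, 35942 ± 8765 and 145990.5 ± 32979 CPM, and did not pass against the average (adjusted p = 0.0565).

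As whole classes, known miRNAs were highest at day 22 both as a share of the small RNA reads and of all reads. On days 7, 22 and 37 they took 12.3% ± 0.574, 15.4% ± 0.721 and 7.51% ± 1.21 of the small RNA reads (those in small RNA entries), and 0.860% ± 0.0595, 1.61% ± 0.105 and 0.898% ± 0.150 of all reads (SD, n = 3). In both, the 3 day 22 libraries lay above the other 6. Permuting the 3 day 22 labels over all 9 libraries (exact two-sided permutation test) gave p = 0.0238 for both, the smallest it can give, or 0.0952 and 0.0476 adjusted over 8 classes. The 21-nt siRNAs held 31.1% ± 0.466, 39.6% ± 1.19 and 35.5% ± 2.45 of the small RNA reads on the 3 days in turn (exact permutation p = 0.0238, adjusted 0.0952), but of all reads 2.18% ± 0.0515, 4.15% ± 0.198 and 4.24% ± 0.311, where day 22 lay within the range of day 37 (exact permutation p = 0.31). The 24-nt siRNAs were lowest at day 22 as a share of all reads, at 1.36% ± 0.00793, 0.988% ± 0.0435 and 1.22% ± 0.0531 (exact permutation p = 0.0238, adjusted 0.0476). Within small RNA entries their day 22 libraries overlapped those of day 37 (exact permutation p = 0.0714). Structural RNA took 3.72% ± 0.434, 5.51% ± 1.37 and 17.2% ± 4.45 of the small RNA reads, and 0.616%, 0.929% and 2.83% once the 10 most abundant small RNA entries were left out. Without those entries known miRNAs took 8.001%, 10.7% and 7.96%, with 1 day 7 library above all of day 22 (exact permutation p = 0.0952). The 21-nt siRNAs then took 32.7%, 42.4% and 41.6%, and day 22 overlapped day 37 (exact permutation p = 0.143).

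**Figure D5:**
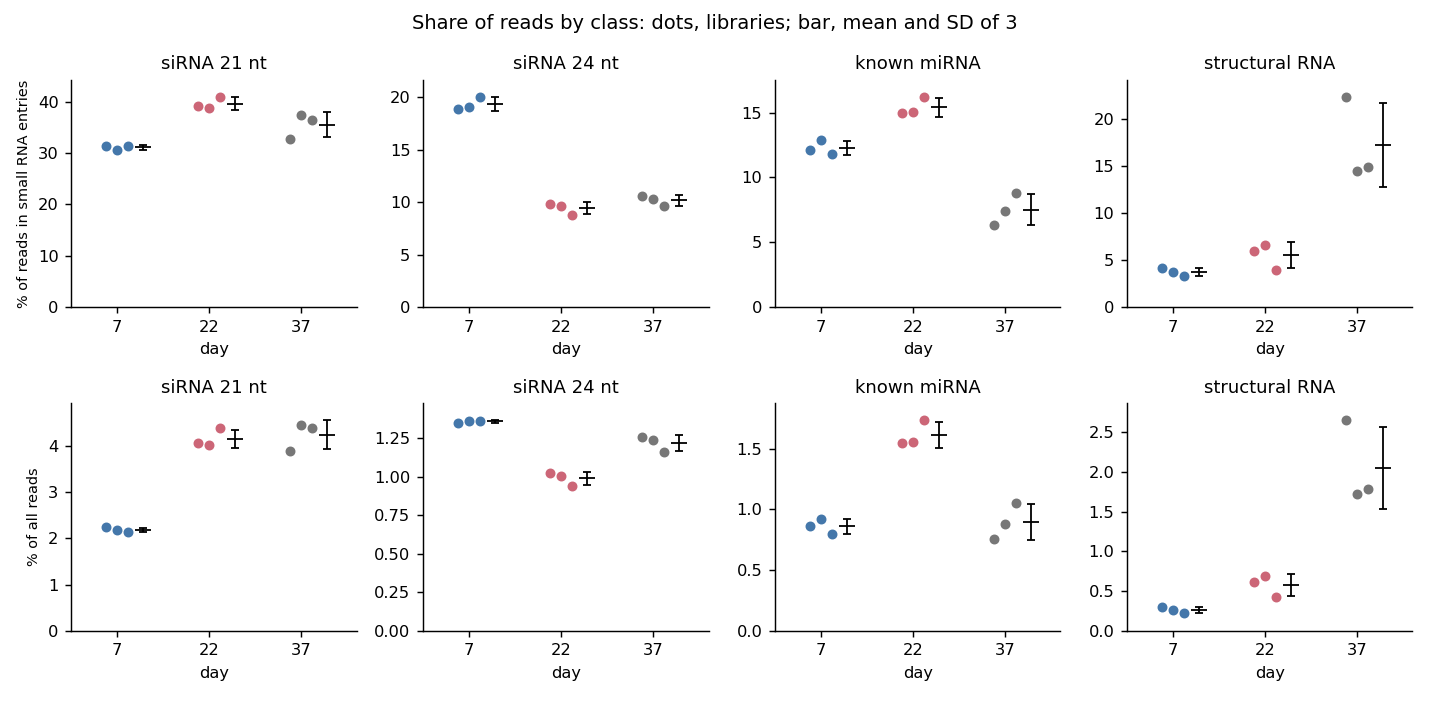
Share of reads in 4 classes of small RNA (y axes, from 0, % of the reads in small RNA entries in the top row and % of all reads in the bottom row) by day (x axes). Dots are libraries and bars the mean ± SD of 3; known miRNAs are highest at day 22 in both rows, and 24-nt siRNAs are below both other days without overlap in the bottom row only.

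The balance of calls depended on the scaling, and in every run a listed 0 entered the fit as 0. Of all entries called against the average, 84.8% were higher at day 22, but 71.1% with RLE factors, 54.9% with DESeq2, 49.1% with totals of known miRNAs and 91.5% with all reads as library size. These scalings moved the median difference of all entries by -0.24, -0.27, -0.65 and 0.21. Over all alternatives, peaks numbered 241 to 878, and dips 71 to 426. In every alternative run, 9 or 10 of the 10 siRNAs in the precursor of novel_mir9 peaked, as did 6 or 7 of the 7 in that of novel_mir53 and 18 to 25 of the 29 in that of novel_mir20. For novel_mir87 it was 5 or 6 of the 6. For novel_mir12 it was 2 or 3 of the 3, with 2 under DESeq2, the replicate block and each day 22 library left out. These precursors were chosen for their peaks, so the runs show only how the calls depend on the settings.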

How the data were processed

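Small RNA of 18 to 30 nt was sequenced from 9 seed libraries. Per the labels' protocols, adapters with unique molecular identifiers were ligated, and per the submitters' processing notes Bowtie2 was used, with no role or version; counting tool, filters, genome build and any collapsing by identifier: not given in the sources used here. Per the file headers the values used are counts of reads per small RNA entry, not normalized by the authors. The 9 further columns headed TPM sum to about the read totals and were not used. Guide sequences and precursor positions are deposited values of another kind (other) and were taken unchanged.

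The test was edgeR's quasi-likelihood F test (edgeR 4.0.16, R 4.3.3), with TMM factors, filterByExpr by day, 1 mean per day in a single fit of the 9 libraries, Benjamini-Hochberg adjustment and a threshold of 0.05, after a test of the steps on simulated data. A peak or dip needed an adjusted p under 0.05 with the same sign against the average of day 7 and day 37, against day 7 and against day 37. Families are sums of mature and hairpin entries by the number in the name, tested within the whole table. In predicted miRNAs and siRNAs, whose counts are 0 or at least 10, a 0 was taken to allow 9 reads, which is an assumption. Class shares were compared with an exact permutation test of 3 against 6 libraries.

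Named are the families of at least 10 CPM on average and, among entries of at least 10 CPM with no overlap of day 22 with the other days, the peaks and dips with the largest difference to the nearer day, per class, plus the 5 most abundant entries at day 22. The comparison, members, family lists and tests were chosen with earlier results of these data known, and the precursors and telomere-repeat guides after their values were seen. Replicate numbers were tested for pairing: same-number libraries correlated at -0.03 to 0.13, and 12 of 18 correlations were highest for the library's own number. As the correlations were small, the numbers were not taken as pairs, which the data do not settle. With a replicate block, peaks numbered 465 and not 655. Alternatives were RLE factors, upper quartile, library totals, totals of known miRNAs, all reads as library size, DESeq2 1.42.0, other filters on low counts, a replicate block, each library left out, mature entries alone and merged families.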

Additional observations from a re-analysis of the deposited data

How the results depend on the processing

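Alternatives were compared for the counts of calls, the class shares and each named family and entry. Among the counts of calls and the class shares, 19 counts moved, 2 results reversed, 4 passed the threshold and 233 stayed the same. Over the other, single results, 1258 of 1315 kept their direction and side of the threshold, 21 reversed, 19 lost the call, 16 gained it and 1 count moved. Scaling by totals of known miRNAs moved most counts: 1459 higher, 1510 lower, 241 peaks, 426 dips, 178 and 41 peaks among 21-nt and 22-nt siRNAs, 179 dips among 24-nt siRNAs, 6 peaking and 3 dipping families. DESeq2 gave 1807 lower, 200 dips, 79 dips among 24-nt siRNAs and 1 dipping family, RLE factors 876, 184, 72 and 1, and all reads as library size 285 lower. The dipping family with DESeq2, RLE factors and without day 22 replicate 2 was miR6300. Signs of the log2 difference turned with totals of known miRNAs for miR166 (-0.45), miR167 (-0.37), miR159 (-0.52), miR858 (-0.20), miR319 (-0.36), miR160 (-0.22), miR170 (-0.44), miR169 (-0.30), miR395 (-0.35) and novel_sir14147 (-0.10). Of these, miR166, miR170 and miR159 passed as lower at day 22 (adjusted p = 0.00809, 0.00786 and 0.0442, edgeR), and the others did not pass. With DESeq2 and RLE factors alike signs turned for miR166 (-0.084), miR167 (-0.014), miR159 (-0.15), miR319 (-0.0060) and miR170 (-0.070), and for miR159 with single libraries left out (-0.074 to 0.29, the lowest without day 22 replicate 2). Against the average, miR171, miR390, miR393, miR394 and miR398 did not pass with totals of known miRNAs (adjusted p = 0.0892 to 0.729, edgeR), and miR160, miR166, miR169 and miR170 passed with all reads as library size (0.00647 to 0.0388). With a library left out, miR160 (0.00468) and miR319 (0.0490) passed without day 37 replicate 3, miR169 without day 37 replicate 1 (0.0248) and miR159 without day 22 replicate 3 (0.0127). As a share of all reads, the difference of day 22 from the other days was -0.0592 percentage points for 23-nt siRNAs, -0.299 for 24-nt siRNAs, 0.735 for known miRNAs and 0.134 for hairpins, each passing only there, and turned to 0.128 for 22-nt siRNAs. With single libraries left out, that of predicted miRNAs ranged from -0.0129 (without day 22 replicate 2) to 0.165. The cause was not tested.

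With each library left out in turn, the higher calls ranged from 2287 to 2619, the lower calls from 402 to 490, peaks from 534 to 663, dips from 83 to 98, and families from 8 to 11 peaking and 0 to 1 dipping; peaks ranged from 375 to 469 among 21-nt and 105 to 134 among 22-nt siRNAs, and dips from 29 to 36 among 24-nt siRNAs. The replicate block gave 2246 higher, 402 lower, 465 peaks and 78 dips, with 11 families peaking, and 12 of 18 correlations were highest for the library's own number, a hint from the data and not the design. Counts under 10 are not listed for siRNAs and predicted miRNAs, which limits what their low values show.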
